A study of Mus musculus with 66 samples.

Results

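Squamous neo-epithelium is a patch of stratified squamous lining that lies in the colon of mice after injury with dextran sulfate sodium (DSS), a chemical that damages the colonic mucosa. The comparison was of this tissue at experimental day 14 against day 9, and its members were all the neo-epithelial samples of those days, 6 of the 66 bulk RNA-seq samples of the series. The 6 samples were those of mice 11, 12 and 13 (day 9) and of mice 14, 15 and 16 (day 14), so each day had 3 samples from separate animals. The mice were wild-type C57BL/6, bought at 6 weeks of age. DSS was given at 3% for 6 days from day 0 to the mice of both days, so neither day is an uninjured control, and day 9 and day 14 fall 3 and 8 days after its end. The muscle layer of each section had been discarded. Rectal and anal sections of the same 6 mice served to ask whether a change differed between sections, and the neo-epithelium of mice 17, 18 and 19 (day 20) is given as levels only. Values of 3 samples are in mouse order throughout, in TPM, an abundance adjusted for transcript length. A change is the day 14 minus day 9 difference in mean log2(TPM + 1), given ± its standard error. That scale understates the change of genes with low levels. A gene is said to have risen or fallen only where its limma p-value, adjusted by Benjamini-Hochberg over all genes tested, was under 0.05.

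A stratified squamous epithelium renews from a basal layer that makes keratins 5 and 14, whose daughters move upward, change their keratins and build a protein shell, the cornified envelope, from small proline-rich and late cornified envelope proteins. Squamous mucosae such as the anal canal and oesophagus make keratins 4 and 13, while skin makes keratins 1 and 10 with loricrin and filaggrin. In wound repair, neutrophils, provisional matrix and dividing cells are abundant early and decline as the surface closes.

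The label was checked against squamous markers. Krt5, a basal keratin, had 2883, 2822 and 2963 TPM at day 9 and 1586, 2007 and 2349 TPM at day 14, and Trp63, the transcription factor of squamous basal cells, had 29.4, 35.7 and 29.4 TPM at day 9 and 18.1, 48.3 and 49 TPM at day 14. Both were present in all 6 samples, as were Krt14, Krt4 and Krt13, so the markers go with the label. Colonic transcripts were present too, and the amount differed between mice. The 29 colonocyte markers summed to 1607, 99.97 and 345 TPM at day 9 and 30158, 3050 and 7063 TPM at day 14, so mouse 11 held the most colonic RNA on day 9 and mouse 14 by far the most on day 14. Between 12691 and 13266 genes reached 1 TPM in the 6 samples. Transcripts of the mitochondrial genome took 7.35% to 9.04% of TPM at day 9 and 9.55% to 13.1% at day 14. The files hold no read counts, so the depth is unknown.

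Most tested genes of the squamous cornification, extracellular matrix and cell cycle lists fell by day 14, as did several neutrophil genes. Most tested genes of the goblet cell list rose. So did the immunoglobulin genes Igha, Igkc and Ighm, the MHC class I genes H2-K1 and H2-D1 and the oxidase gene Duox2. Of 13129 genes tested, 2207 passed the limma test, which is 16.8%. The 924 that rose are 7.04% of those tested and the 1283 that fell are 9.77%. The median change over all tested genes was 0.01 on the log2 scale. In each of the 2207 genes the 3 samples of one day lay apart from the 3 of the other, as they did in 41.1% of all genes tested. With mitochondrial genes removed 2244 genes passed. The number moved with the samples fitted: without mouse 13 of day 9, 0 of 12930 genes passed with limma, 3326 had an unadjusted p under 0.05, and the smallest adjusted p was 0.0574. Leaving out 1 of the other 5 mice left between 540 (without mouse 12) and 2838 (without mouse 14) genes. The 2207 genes kept their direction in each of these fits that tested them. That had to be so, because the days did not overlap in any of them, and it adds no evidence.

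**Figure D1:**
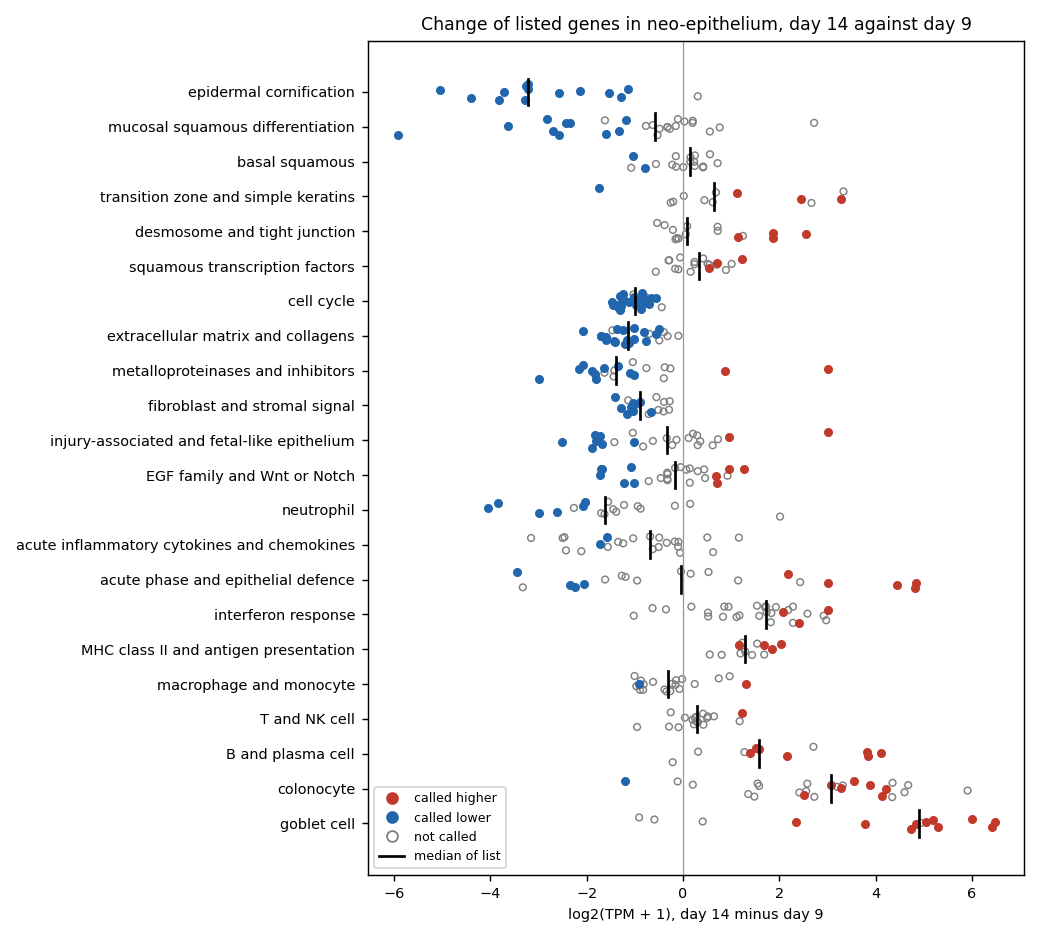
Change from day 9 to day 14 (log2(TPM + 1), horizontal axis) of each tested gene in 22 gene lists (rows); each point is a gene, filled where it passed the limma test, and the bar is the list's median. The cornification median lies at -3.23 and the cell cycle median at -1.0, while the goblet cell median lies at 4.89 and that of all tested genes at 0.01.

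Most tested genes of skin-type cornification fell. The list held 24 genes found in the table, of which 14 passed the filter of at least 1 TPM in 3 samples. Of these 14 genes, 13 fell, 0 rose and 1 did not pass the test (Casp14, a protease of cornifying cells, log2 change 0.31 ± 0.49, limma adjusted p = 0.689). Their median change was -3.23. Over all tested genes 9.77% fell. The 10 genes under the filter included Krt2, Flg2, Hrnr and the Lce1 genes, and a gene that was low on both days could not enter. Most of the 14 reached 1 TPM in every day 9 sample and in few day 14 samples, so their entry rested on day 9, and the count and median describe the tested genes alone. Krt1, the keratin made as skin keratinocytes leave the basal layer, had 14, 53.3 and 60.7 TPM at day 9 and 0.653, 4.06 and 1.63 TPM at day 14 (log2 change -3.72 ± 0.64, limma adjusted p = 0.0174). The lowest day 9 sample, mouse 11, was still above all 3 samples of day 14. Flg encodes filaggrin, which bundles keratin filaments, and stood at 11.2, 33.1 and 76.7 TPM at day 9 and 0.724, 3.54 and 0.44 TPM at day 14 (log2 change -3.83 ± 0.74, limma adjusted p = 0.0227). Lor, which encodes loricrin of the cornified envelope, had 3.27, 12.1 and 33.3 TPM at day 9 and 0.275, 0.378 and 0.233 TPM at day 14 (log2 change -3.26 ± 0.70, limma adjusted p = 0.0289). Mouse 13 had the highest level of both genes on day 9, and the day 14 samples were all low. Asprv1, the protease that cuts profilaggrin, was more even among mice, with 163, 119 and 182 TPM at day 9 and 12.4, 21.7 and 13.5 TPM at day 14 (log2 change -3.23 ± 0.25, limma adjusted p = 0.00853). Cst6, a cysteine protease inhibitor of cornifying layers, fell at a low level, with 1.89, 2.43 and 2.26 TPM at day 9 and 0.397, 0.602 and 0.324 TPM at day 14 (log2 change -1.15 ± 0.16, limma adjusted p = 0.0118).

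Late cornified envelope genes were among the largest falls of the named genes on the log2 scale. Lce3f, at chr3:92992226-92993426 (mm10), had 16.2, 63.8 and 104 TPM at day 9 and 0, 2.25 and 0 TPM at day 14 (log2 change -5.04 ± 0.77, limma adjusted p = 0.0135). Lce3e followed with 8.35, 29.1 and 61.2 TPM at day 9 and 0, 0.855 and 0 TPM at day 14 (log2 change -4.40 ± 0.68, limma adjusted p = 0.014), and Lce3a had 15.7, 48.7 and 88.7 TPM at day 9 and 0, 1.94 and 0 TPM at day 14 (log2 change -4.88 ± 0.70, limma adjusted p = 0.0123). In mice 14 and 16 all 3 genes were listed at 0, and mouse 15 held a trace of each. These genes are near copies of each other, so the division of reads among them is uncertain. Rptn (repetin, an envelope precursor, -4.45), Crct1 (-3.94) and Lce3b (-4.02) were also among the 12 largest falls of the named genes, with limma adjusted p of 0.0167, 0.0175 and 0.0164.

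Genes of mucosal squamous differentiation, the program of anal canal and oesophagus, were divided. Of 26 tested of 28 in the table, 10 fell, 0 rose and 16 did not pass the test, with a median change of -0.58. Over all tested genes 9.77% fell. Sprr3, a small proline-rich envelope protein of mucosal squamous cells and the largest fall of all named genes, had 308, 852 and 885 TPM at day 9 and 3.82, 56 and 2.78 TPM at day 14 (log2 change -5.93 ± 1.06, limma adjusted p = 0.0192). Krt4 had 3590.0, 2715 and 3025 TPM at day 9 and 416, 1096 and 403 TPM at day 14 (log2 change -2.44 ± 0.39, limma adjusted p = 0.0154). All day 9 samples of both genes lay far above those of day 14, and mouse 15 was the highest of its day. Krt13, the usual partner of keratin 4 in the same cell layer, did not pass, with 9928, 8768 and 8907 TPM at day 9 and 3722, 8075 and 5194 TPM at day 14 (log2 change -0.77 ± 0.27, limma adjusted p = 0.1), and mouse 15 held nearly as much as the day 9 samples. Cnfn, which encodes cornifelin of the envelope, had 894, 996 and 708 TPM at day 9 and 53.2, 254 and 22.4 TPM at day 14 (log2 change -3.64 ± 0.81, limma adjusted p = 0.0319). Krt16, a keratin of activated and wound-edge keratinocytes, had 353, 482 and 509.6 TPM at day 9 and 115, 75.7 and 74.8 TPM at day 14 (log2 change -2.34 ± 0.22, limma adjusted p = 0.00888), while its partner Krt6a missed the threshold (log2 change -0.63 ± 0.17, limma adjusted p = 0.0508). Sprr1a, another envelope protein, had 1604, 2276 and 1931 TPM at day 9 and 288, 548 and 209 TPM at day 14 (log2 change -2.58 ± 0.35, limma adjusted p = 0.0118). Involucrin (Ivl, -0.53), transglutaminase 1 (Tgm1, -0.28) and Emp1 (-0.49) had log2 changes that did not pass, with limma adjusted p of 0.227, 0.392 and 0.394. Some small proline-rich genes had higher values at day 14 without passing. Sprr2d had 76.4, 578 and 286 TPM at day 9 and 727, 2347 and 2151 TPM at day 14 (log2 change 2.72 ± 0.80, limma adjusted p = 0.063), so all 3 samples of day 14 were above all of day 9. The Sprr2 genes are near copies, so their values are uncertain.

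Upstream windows are shown for Sprr1a and Sprr1b because motifs of the AP-1 family of stress-induced transcription factors occur often before genes of this list. The windows are the 250 bases before the start site, from RefSeq (GRCm38.p6), Sprr1a at chr3:92485882-92486131 and Sprr1b at chr3:92438780-92439029, both on the minus strand and written 5′ to 3′ in the direction of the gene, with each match in capitals.
Sprr1a: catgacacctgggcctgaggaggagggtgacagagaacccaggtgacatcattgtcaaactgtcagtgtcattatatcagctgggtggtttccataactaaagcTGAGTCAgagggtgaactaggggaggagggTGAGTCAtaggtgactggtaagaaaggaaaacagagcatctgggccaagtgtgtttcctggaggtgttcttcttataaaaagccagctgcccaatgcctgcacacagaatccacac
Sprr1b: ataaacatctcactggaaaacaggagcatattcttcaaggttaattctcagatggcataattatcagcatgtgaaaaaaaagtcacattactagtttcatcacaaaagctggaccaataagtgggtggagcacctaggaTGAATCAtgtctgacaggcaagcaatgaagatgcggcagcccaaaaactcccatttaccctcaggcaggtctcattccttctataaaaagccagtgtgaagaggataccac
The motif TGANTCA was searched on both strands; it reads the same on either strand and does not overlap another motif shown here. RefSeq windows were found for 19 of the 28 listed genes, and 11 of their 22 windows (50%) held a match, against 6.75% of all 32851 windows. For the cornification list 25% of 24 windows did. The 10 tested genes with a match had a median change of -0.98 and 5 fell, among them Sprr1a, Sprr1b (log2 change -2.69 ± 0.56, limma adjusted p = 0.027), Krtdap and Sbsn. Of the 8 without a match, 2 fell (Cnfn and Sprr3) and the median change was -0.30. Sprr1a has matches that begin 146 and 116 bases before its start, and Sprr1b has 1 at 111. A match describes letters in a window and not a bound site.

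Many of the genes above are neighbours. The interval chr3:90511034-93564643 (mm10), from S100a1 to S100a10, is the epidermal differentiation complex, a cluster of envelope and S100 genes. The interval and the kallikrein cluster were chosen after their values were seen. Of 75 protein-coding genes there, 43 were tested, 19 fell, 0 rose and 24 did not pass, and the median change was -0.88. Over all tested genes, 9.77% fell and 7.04% rose. The 19 were the 6 Lce3 genes, Sprr1a, Sprr1b, Sprr2i, Sprr2j-ps, Sprr2k, Sprr3, Lor, Flg, Rptn, Crct1, S100a4, S100a8 and S100a9. At the kallikrein cluster, chr7:43690418-44229618, 8 of 26 coding genes were tested; 7 fell (Klk8 to Klk14) and Klk1 rose. Klk9, Klk12 and Klk14 were under 1 TPM in every day 14 sample, as were Lce3c, Lce3d, Lce3e and Lor of the other interval, so they entered the test through day 9 alone, and both counts describe only the tested genes. Kallikreins are serine proteases, and several of them cut the links between cells of the outer skin. Klk13 had 96.1, 167 and 129 TPM at day 9 and 2.28, 10.9 and 1.07 TPM at day 14 (log2 change -4.90 ± 0.63, limma adjusted p = 0.0113), and Klk10 had 167, 164 and 144 TPM at day 9 and 3.47, 17.8 and 1.5 TPM at day 14 (log2 change -4.74 ± 0.69, limma adjusted p = 0.0125). Day 9 was high in every mouse for both, and mouse 15 was again the highest of day 14. Klk1, which is made by goblet cells of the colon and counted in that list, had 3.28, 0.738 and 1.75 TPM at day 9 and 376, 26.8 and 35.7 TPM at day 14 (log2 change 4.73 ± 0.99, limma adjusted p = 0.0277).

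Of the 17 basal squamous genes, all tested, 2 fell, 0 rose and 15 did not pass, beside 9.77% of all tested genes that fell, and their median change was 0.15. Their summed level was 13213 to 14854 TPM at day 9 and 8321 to 9124 TPM at day 14, without overlap. Krt14 had 9069.7, 9568 and 10925 TPM at day 9 and 5668, 5851 and 5586 TPM at day 14 (log2 change -0.79 ± 0.11, limma adjusted p = 0.0123), with every day 14 sample below every day 9 sample. Krt5 also had no overlap between days but missed the threshold (log2 change -0.56 ± 0.16, limma adjusted p = 0.0565) and passed under another scaling (adjusted p = 0.0283 with trimmed mean of M-values scaling). The second gene that fell was Pdpn (podoplanin, also made by stromal cells, log2 change -1.05 ± 0.21, limma adjusted p = 0.0238), which is listed under 2 gene identifiers with the same values. Trp63 (log2 change 0.16 ± 0.38, limma adjusted p = 0.797), Itgb4 of the hemidesmosome (log2 change 0.15 ± 0.23, limma adjusted p = 0.674) and Col17a1 (log2 change 0.23 ± 0.24, limma adjusted p = 0.534) did not pass. Without mouse 14 the count was 6 higher and 4 lower, beside 1565 higher and 1273 lower of all 12869 genes tested. In the fit of all 6 samples, 3 of 18 squamous transcription factors tested rose and 0 fell, beside 7.04% of all tested genes that rose. Elf3, an epithelial ETS factor, had 153, 189 and 159.7 TPM at day 9 and 304, 459.8 and 425 TPM at day 14 (log2 change 1.22 ± 0.18, limma adjusted p = 0.0133), and Klf5, a factor of proliferating epithelium, rose too (log2 change 0.71 ± 0.17, limma adjusted p = 0.0362). All day 14 samples were above all day 9 samples for both genes. Without mouse 14, 8 of the list rose, beside 1565 of all 12869 genes tested.

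Some claudins and other surface genes of simple or transitional epithelium rose. Of 12 tested genes of transition zone and simple keratins, 3 rose and 1 fell, with a median change of 0.65. Over all tested genes, 7.04% rose and 9.77% fell. Cldn4, a tight junction claudin, had 119, 94.2 and 101 TPM at day 9 and 182, 262 and 248 TPM at day 14 (log2 change 1.12 ± 0.18, limma adjusted p = 0.0144). Muc4, a membrane mucin, had 4.47, 20.6 and 12.8 TPM at day 9 and 54.2, 219.6 and 119 TPM at day 14 (log2 change 3.27 ± 0.65, limma adjusted p = 0.0247), and Krt20, a keratin of surface colonocytes and umbrella cells, had 116, 24 and 58.6 TPM at day 9 and 570.1, 229 and 212 TPM at day 14 (log2 change 2.44 ± 0.63, limma adjusted p = 0.0454). For Cldn4 and Muc4, mouse 15 was the highest of day 14, and for Krt20 mouse 14 was. The gene that fell was Krt17, a keratin of wound edges, with 966, 1315 and 1348 TPM at day 9 and 443, 262 and 385 TPM at day 14 (log2 change -1.75 ± 0.23, limma adjusted p = 0.0114). Of 15 desmosome and tight junction genes tested, 4 rose and 0 fell: Cldn7 (log2 change 1.15 ± 0.20, limma adjusted p = 0.0185), Cldn3 (log2 change 1.86 ± 0.41, limma adjusted p = 0.031), Cldn8 (log2 change 2.54 ± 0.52, limma adjusted p = 0.0268) and Dsg2 (log2 change 1.87 ± 0.42, limma adjusted p = 0.0328). Colonocytes also express these 4 genes, and mouse 14, the sample with the most colonic RNA, was the highest in each; the part of colonic RNA in these changes was not tested. The desmosomal genes Dsp (-0.16), Jup (-0.21) and Pkp1 (-0.38), which squamous cells use, had log2 changes that did not pass, with limma adjusted p of 0.551, 0.267 and 0.286.

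**Figure D2:**
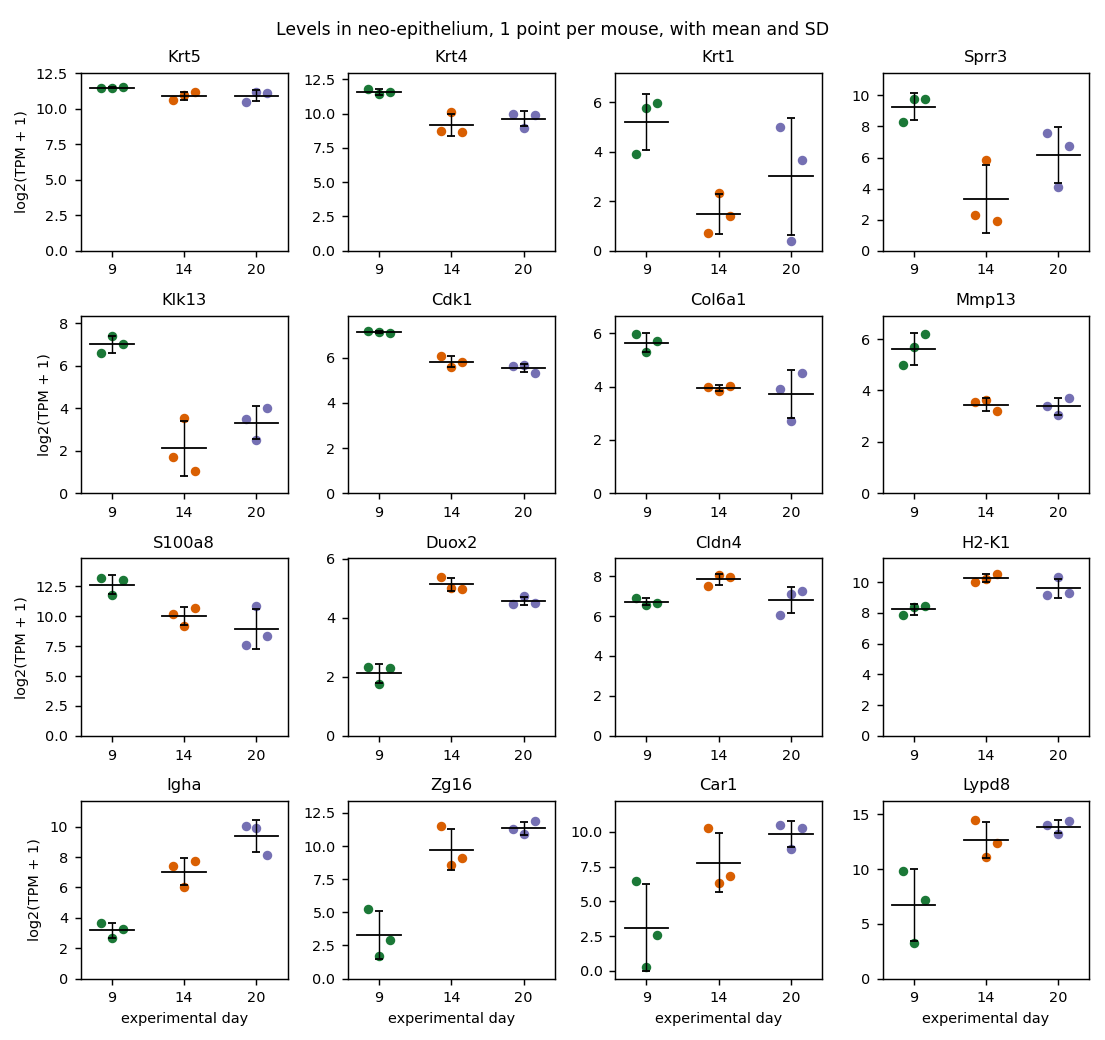
Level of 16 genes, 1 per panel, in each neo-epithelium sample (points) on days 9, 14 and 20 (horizontal axis), as log2(TPM + 1) on the vertical axis; the line and bar give the mean and the SD of 3 samples. Krt4, Klk13, Cdk1, Col6a1 and S100a8 are lower in every day 14 sample than in every day 9 sample, Duox2, H2-K1 and Igha are higher in every one, and the days overlap for Car1.

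Nearly all listed cell cycle genes fell. Of 32 tested, 29 fell, 0 rose and 3 did not pass, all 32 changes were negative, and the median was -1.0. Over all tested genes 9.77% fell. Cdk1, the kinase that drives entry to mitosis, had 143, 138 and 134 TPM at day 9 and 65.9, 47.2 and 54.4 TPM at day 14 (log2 change -1.31 ± 0.14, limma adjusted p = 0.0107). Ccnb2, a cyclin partner of that kinase, had 55.8, 47.9 and 45.9 TPM at day 9 and 26.6, 20.5 and 25.6 TPM at day 14 (log2 change -1.01 ± 0.15, limma adjusted p = 0.0123). The 3 samples of each day were close together and the days far apart. Of the replication helicase, Mcm5 had 40.9, 36.6 and 38.3 TPM at day 9 and 14.6, 15.2 and 17.3 TPM at day 14 (log2 change -1.25 ± 0.12, limma adjusted p = 0.00888), and Mcm2, Mcm3, Mcm4, Mcm6 and Mcm7 fell too. Ccnd1, the cyclin of the start of the cycle, had 74.4, 65.1 and 70.2 TPM at day 9 and 34.9, 25 and 24.8 TPM at day 14 (log2 change -1.29 ± 0.16, limma adjusted p = 0.0109). Aurkb, a mitotic kinase, had 18.8, 19.6 and 19.8 TPM at day 9 and 7.96, 7.5 and 6.83 TPM at day 14 (log2 change -1.28 ± 0.12, limma adjusted p = 0.00853). The 3 that did not pass were Mki67 (log2 change -0.44 ± 0.15, limma adjusted p = 0.084), Bub1b (log2 change -0.79 ± 0.22, limma adjusted p = 0.0527) and Cenpf (log2 change -1.03 ± 0.30, limma adjusted p = 0.0614). In bulk tissue, fewer cells of a type and less RNA per cell cannot be told apart.

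Windows before Cdk1 and Ccnb2 are shown because genes that peak at division often carry CCAAT boxes, bound by the factor NF-Y, near their start, and TTTGAA, the core of the cell cycle genes homology region. They come from RefSeq (GRCm38.p6), Cdk1 at chr10:69352913-69353162 and Ccnb2 at chr9:70421555-70421804, both on the minus strand, written 5′ to 3′ in the direction of the gene, with matches on either strand in capitals (ATTGG is CCAAT on the opposite strand).
Cdk1: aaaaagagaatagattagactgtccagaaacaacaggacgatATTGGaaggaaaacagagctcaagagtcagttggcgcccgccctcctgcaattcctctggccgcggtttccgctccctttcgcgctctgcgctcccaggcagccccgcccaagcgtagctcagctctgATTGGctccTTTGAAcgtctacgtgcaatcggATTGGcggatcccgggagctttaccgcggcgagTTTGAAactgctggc
Ccnb2: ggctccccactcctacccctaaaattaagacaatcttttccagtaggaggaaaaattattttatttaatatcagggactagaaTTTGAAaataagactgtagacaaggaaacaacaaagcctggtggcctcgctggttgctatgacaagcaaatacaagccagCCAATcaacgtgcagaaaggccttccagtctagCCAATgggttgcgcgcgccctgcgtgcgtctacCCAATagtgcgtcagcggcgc
RefSeq windows were found for 25 of the 32 cell cycle genes. CCAAT was in 21 of their 26 windows (80.8%), against 33.8% of all 32851 windows, and TTTGAA was in 23.1% against 16.0%. Mean GC content was 59.6% in these windows and 53.2% in all. The 20 tested genes with CCAAT in the window had a median change of -1.02 and 17 of them fell. The 5 without it (Birc5, Ccne1, E2f1, Mybl2 and Tyms) all fell, with a median of -0.98. In Cdk1 the CCAAT boxes begin 208, 80 and 48 bases before the RefSeq start, and in Ccnb2 they begin 87, 54 and 21 bases before it. The outermost GENCODE starts are at 69352938 for Cdk1, within its window, and at 70421547 for Ccnb2. The distances therefore depend on the annotation.

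Most listed extracellular matrix genes fell. All 24 were tested, 18 fell, 0 rose and 6 did not pass, all 24 changes were negative, and the median was -1.15. Over all tested genes 9.77% fell. Of tested collagens outside the lists, looked up after the values were seen, Col5a3, Col15a1 and Col18a1 fell. Col4a5, Col7a1, Col8a1, Col16a1, Col23a1 and Col27a1 did not pass. Col3a1, the fibrillar collagen of granulation tissue, had 807, 1035 and 1245 TPM at day 9 and 298, 271 and 468 TPM at day 14 (log2 change -1.59 ± 0.25, limma adjusted p = 0.0151), and Col1a1, the main fibrillar collagen, had 62.1, 64.9 and 84.4 TPM at day 9 and 24.5, 22.8 and 28.2 TPM at day 14 (log2 change -1.44 ± 0.16, limma adjusted p = 0.0107). Col6a1, which forms beaded filaments beside cells and lies at chr10:76708792-76726168, had 61.2, 37.7 and 51 TPM at day 9 and 14.9, 13.2 and 15.2 TPM at day 14 (log2 change -1.70 ± 0.19, limma adjusted p = 0.0107). Col6a2, its partner chain, had 55.2, 32.6 and 48.1 TPM at day 9 and 11.5, 8.03 and 9.7 TPM at day 14 (log2 change -2.09 ± 0.23, limma adjusted p = 0.0107). No day 14 sample reached the lowest day 9 sample of any of these 4 genes. Sparc, a collagen-binding protein of remodelling matrix, had 494, 564 and 684 TPM at day 9 and 221, 211 and 306 TPM at day 14 (log2 change -1.24 ± 0.19, limma adjusted p = 0.014), and Loxl2, a collagen cross-linking enzyme, fell too (log2 change -1.59 ± 0.19, limma adjusted p = 0.0109). The 6 that did not pass were Col12a1 (-0.10), Fn1 (-0.40), Tnc (-0.49), Postn (-0.32), Thbs1 (-1.47) and Thbs2 (-0.70) on the log2 scale, which include fibronectin and tenascin of provisional matrix. Of 17 fibroblast genes tested of 20, 9 fell, 0 rose and 8 did not pass, with a median of -0.90. Pdgfra, a receptor that marks stromal fibroblasts, had 18.6, 16.4 and 19 TPM at day 9 and 6.98, 6.78 and 9.03 TPM at day 14 (log2 change -1.15 ± 0.15, limma adjusted p = 0.0113), and Grem1, a secreted BMP antagonist of the stroma, had 37.3, 49.8 and 55.4 TPM at day 9 and 17.2, 14.3 and 20.3 TPM at day 14 (log2 change -1.41 ± 0.20, limma adjusted p = 0.0121). The 20 fibroblast genes summed to 396 to 501 TPM at day 9 and 202 to 237 TPM at day 14, and the part of a smaller stromal share in the matrix changes was not tested.

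Matrix proteases and their inhibitors changed in both directions, more often downward. Of 20 tested, 10 fell, 2 rose and 8 did not pass, with a median of -1.39. Over all tested genes, 9.77% fell and 7.04% rose. Mmp13, a collagenase, had 30.4, 50.8 and 72.2 TPM at day 9 and 10.7, 11.4 and 8.09 TPM at day 14 (log2 change -2.17 ± 0.32, limma adjusted p = 0.0124). Mmp10, a stromelysin of migrating wound keratinocytes, had 39.2, 67.2 and 109 TPM at day 9 and 24.7, 10.1 and 22.5 TPM at day 14 (log2 change -1.83 ± 0.46, limma adjusted p = 0.0422), and Plau, the urokinase that activates plasminogen, had 26, 37.5 and 57.5 TPM at day 9 and 8.63, 8.16 and 12.4 TPM at day 14 (log2 change -1.90 ± 0.30, limma adjusted p = 0.0153). Mouse 13 was the highest of day 9 for all 3 genes, and mouse 11 the lowest. Mmp2, a stromal gelatinase, was tight within each day, with 116, 103 and 109 TPM at day 9 and 39.4, 43.4 and 44 TPM at day 14 (log2 change -1.35 ± 0.11, limma adjusted p = 0.00853). Timp1, a metalloproteinase inhibitor, had 94.9, 140.3 and 226 TPM at day 9 and 31.5, 50.3 and 41.9 TPM at day 14 (log2 change -1.81 ± 0.33, limma adjusted p = 0.0203). The 2 that rose were Mmp7 (matrilysin, made by epithelial cells), with 1.09, 1.73 and 0.313 TPM at day 9 and 15.4, 18.4 and 11.5 TPM at day 14 (log2 change 3.02 ± 0.31, limma adjusted p = 0.0104), and Mmp11 (log2 change 0.87 ± 0.21, limma adjusted p = 0.0376). Mmp9, a gelatinase, did not pass (log2 change -1.63 ± 0.48, limma adjusted p = 0.063).

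Growth factors of the EGF family did not move as one. Areg (amphiregulin) had 76.2, 98.9 and 90.6 TPM at day 9 and 50.7, 41.8 and 36.9 TPM at day 14 (log2 change -1.03 ± 0.16, limma adjusted p = 0.0149), and Ereg (epiregulin) had 19.4, 29.4 and 42.8 TPM at day 9 and 10.5, 8.5 and 6.63 TPM at day 14 (log2 change -1.68 ± 0.30, limma adjusted p = 0.0194). Nrg1 (neuregulin 1, a ligand of the ERBB3 receptor) had 13.3, 11.5 and 18.8 TPM at day 9 and 3.33, 3.22 and 4.67 TPM at day 14 (log2 change -1.70 ± 0.22, limma adjusted p = 0.0113). These 3 ligands and Epgn (log2 change -1.73 ± 0.44, limma adjusted p = 0.0437) fell, with no overlap between days. Hbegf, another ligand of the EGF receptor, rose, with 22.5, 30 and 25.2 TPM at day 9 and 53.5, 62.2 and 39.8 TPM at day 14 (log2 change 0.96 ± 0.20, limma adjusted p = 0.0265). The receptors Erbb3, at 13.9, 13 and 9.53 TPM at day 9 and 32, 27.4 and 31.7 TPM at day 14 (log2 change 1.27 ± 0.17, limma adjusted p = 0.0114), and Erbb2 (log2 change 0.67 ± 0.16, limma adjusted p = 0.0378) rose. Of the 25 genes of EGF, Wnt and Notch signalling tested, 4 rose and 6 fell, with a median of -0.16. Over all tested genes, 7.04% rose and 9.77% fell. The Notch ligand Dll1 (log2 change -1.23 ± 0.19, limma adjusted p = 0.0134) and the Wnt ligand Wnt10a (log2 change -1.08 ± 0.23, limma adjusted p = 0.0289) were among those that fell, and Hes1, a Notch target, was among those that rose (log2 change 0.70 ± 0.18, limma adjusted p = 0.0458). Of 23 genes of injured and fetal-like gut epithelium, 2 rose, 7 fell and 14 did not pass, beside the same 7.04% and 9.77%. Msln (mesothelin) had 16.7, 6.28 and 7.58 TPM at day 9 and 1.4, 0.0949 and 1.22 TPM at day 14 (log2 change -2.52 ± 0.44, limma adjusted p = 0.0175), and Itga5, the fibronectin receptor chain, had 27.8, 11.1 and 22.5 TPM at day 9 and 4.38, 4.51 and 5.51 TPM at day 14 (log2 change -1.80 ± 0.32, limma adjusted p = 0.0194). Anxa1 (0.21), Ly6a (0.72) and Clu (-0.14) had log2 changes that did not pass, with limma adjusted p of 0.682, 0.104 and 0.787.

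**Figure D3:**
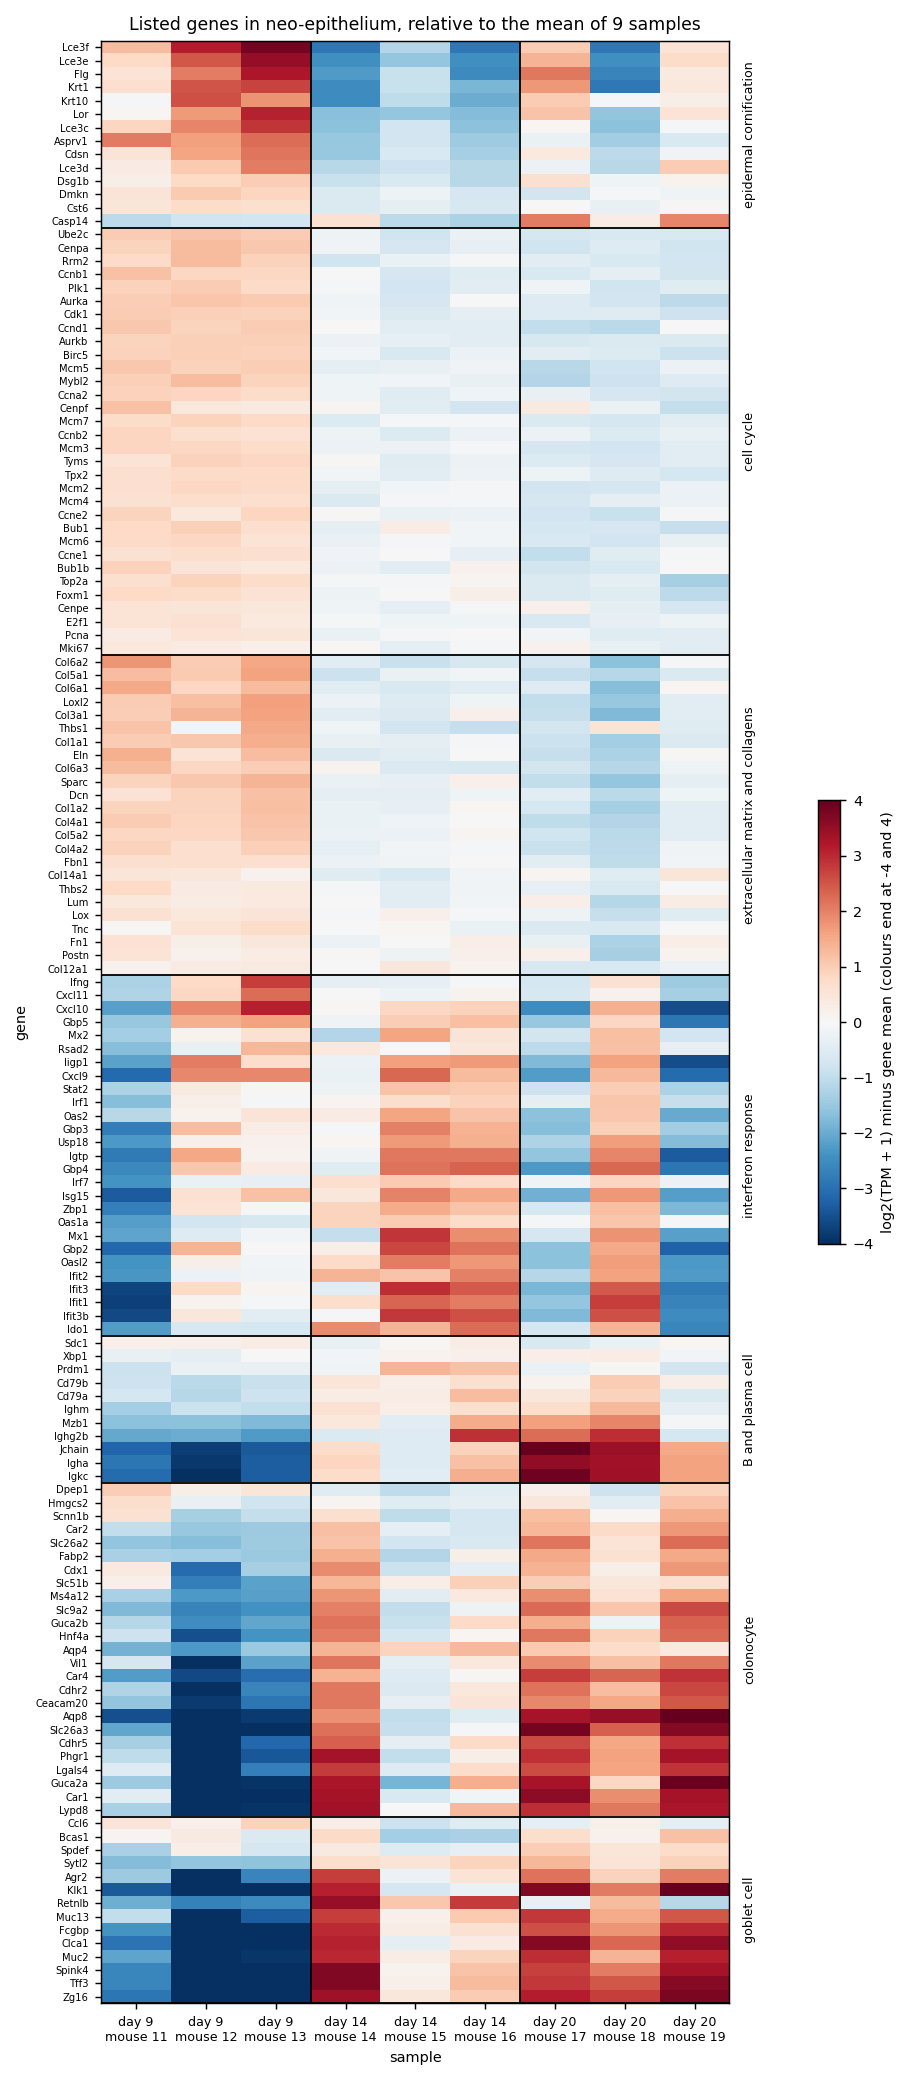
Level of tested genes of 7 gene lists (rows) in the 9 neo-epithelium samples of days 9, 14 and 20 (columns), as log2(TPM + 1) minus the gene's mean over those 9 samples (colour scale). The cell cycle rows are above their mean in all 3 day 9 samples, as are the matrix rows except Thbs1, and most goblet cell rows are below it there.

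Several neutrophil genes fell. Of 19 tested, 6 fell, 0 rose and 13 did not pass, beside 9.77% of all tested genes that fell, and the median was -1.63. S100a8, a subunit of the antimicrobial dimer calprotectin, had 9204, 3401 and 8137 TPM at day 9 and 1181, 576 and 1608 TPM at day 14 (log2 change -2.62 ± 0.50, limma adjusted p = 0.0226). Its partner S100a9 had 7704, 3329 and 8481 TPM at day 9 and 1566, 877 and 2116 TPM at day 14 (log2 change -2.07 ± 0.46, limma adjusted p = 0.0311). Squamous cells under stress also make both. Retnlg, a granulocyte resistin-like gene, had 1768, 427 and 1086 TPM at day 9 and 63.4, 43.4 and 95.9 TPM at day 14 (log2 change -3.85 ± 0.55, limma adjusted p = 0.0123), and Ngp, a granule protein of immature neutrophils, had 123, 24.4 and 37 TPM at day 9 and 0.473, 0.852 and 8.6 TPM at day 14 (log2 change -4.05 ± 0.87, limma adjusted p = 0.0292). Mouse 12 held the least of these 4 genes on day 9, and no day 14 sample reached it. Csf3r (-0.17) and Cxcr2 (-0.94), receptors that define mature neutrophils, had log2 changes that did not pass, with limma adjusted p of 0.861 and 0.259. The 19 genes summed to 9007 to 21263 TPM at day 9 and 5071 to 10608 TPM at day 14, so the sums of the days overlapped. Ltf (lactoferrin), which glands and epithelia also make, had the opposite direction without passing, at 742, 1369 and 1148 TPM at day 9 and 1624, 7366 and 6439.8 TPM at day 14 (log2 change 2.01 ± 0.59, limma adjusted p = 0.0632).

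Of 23 tested cytokine and chemokine genes of 27, 2 fell and 0 rose, beside 9.77% of all tested genes that fell, and their median change was -0.68. Ccl7, a monocyte chemokine, had 30.6, 43.3 and 49 TPM at day 9 and 10.1, 14.1 and 10.6 TPM at day 14 (log2 change -1.72 ± 0.21, limma adjusted p = 0.0109), and Ptges, which makes prostaglandin E2, had 42.5, 36.9 and 63 TPM at day 9 and 10.9, 11.4 and 25.4 TPM at day 14 (log2 change -1.59 ± 0.36, limma adjusted p = 0.0336). Il1b had 345, 241 and 1655 TPM at day 9 and 621, 164 and 326 TPM at day 14 (log2 change -0.68 ± 0.81, limma adjusted p = 0.578), and Cxcl2, a neutrophil chemokine, had 79.8, 43.3 and 465 TPM at day 9 and 60.7, 21.9 and 88.4 TPM at day 14 (log2 change -1.24 ± 0.93, limma adjusted p = 0.38). Both of these overlapped between days. Il6 had 2.27, 16.3 and 27.9 TPM at day 9 and 1.26, 0.601 and 1.88 TPM at day 14 (log2 change -2.43 ± 0.78, limma adjusted p = 0.0783), and it was high in mouse 13. Of 20 macrophage and monocyte genes, Cd68 (a lysosomal protein) fell, with 86.9, 68.9 and 99.6 TPM at day 9 and 37.2, 48.7 and 47.7 TPM at day 14 (log2 change -0.91 ± 0.18, limma adjusted p = 0.0239), and Cx3cr1 (a receptor of resident gut macrophages) rose at a low level (log2 change 1.30 ± 0.26, limma adjusted p = 0.0246). The other 18, among them Adgre1 (log2 change -0.22 ± 0.18, limma adjusted p = 0.407) and C1qa (log2 change -0.02 ± 0.13, limma adjusted p = 0.929), did not pass. Over all tested genes 16.8% passed.

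Epithelial defence genes changed in both directions. Of 19 tested of 25, 5 rose, 4 fell and 10 did not pass. Over all tested genes, 7.04% rose and 9.77% fell. Duox2, an oxidase that releases hydrogen peroxide at the surface, had 4.05, 2.36 and 3.9 TPM at day 9 and 40.9, 31.4 and 30.9 TPM at day 14 (log2 change 3.01 ± 0.21, limma adjusted p = 0.00853), which equals the smallest limma adjusted p of the comparison. Duoxa2, which brings the oxidase to the membrane, had 12.5, 17.3 and 16.5 TPM at day 9 and 73.2, 68.9 and 77.3 TPM at day 14 (log2 change 2.19 ± 0.15, limma adjusted p = 0.00853). The samples of each day were close together for both. Pigr, which carries IgA across the epithelium, had 14.4, 7.62 and 3.81 TPM at day 9 and 422, 132 and 248 TPM at day 14 (log2 change 4.81 ± 0.55, limma adjusted p = 0.0109). Saa1, an acute phase protein with near copies, had 85.6, 6.96 and 20.4 TPM at day 9 and 1266, 285 and 412 TPM at day 14 (log2 change 4.44 ± 0.94, limma adjusted p = 0.0287), while Saa3, the form made by macrophages and epithelia, had 1579, 3189 and 5486 TPM at day 9 and 413, 848 and 598 TPM at day 14 (log2 change -2.35 ± 0.48, limma adjusted p = 0.0264). Lcn2, a protein that binds bacterial siderophores and is also in neutrophil granules, had 731, 253 and 547 TPM at day 9 and 64.8, 85 and 169 TPM at day 14 (log2 change -2.24 ± 0.49, limma adjusted p = 0.0305). Wfdc21 (log2 change -3.45 ± 0.61, limma adjusted p = 0.0187) and Hp (haptoglobin, log2 change -2.06 ± 0.50, limma adjusted p = 0.0384) fell as well. Retnlb, a goblet cell protein that acts on bacteria, had 0.664, 0 and 0.121 TPM at day 9 and 71.8, 12.6 and 43.7 TPM at day 14 (log2 change 4.85 ± 0.60, limma adjusted p = 0.0109). Pigr, Saa1 and Retnlb were each highest in mouse 11 at day 9 and in mouse 14 at day 14, and so was the summed level of 29 colonocyte markers, at 1607, 99.97 and 345 TPM at day 9 and 30158, 3050 and 7063 TPM at day 14. The part of colonic tissue in these rises was not tested.

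The antigen presentation list held 3 MHC class I genes that rose. H2-K1, a classical class I heavy chain, had 227, 332 and 347 TPM at day 9 and 1019, 1187 and 1492 TPM at day 14 (log2 change 2.03 ± 0.22, limma adjusted p = 0.0107). B2m, the light chain, had 514, 884 and 860.0 TPM at day 9 and 2157, 2946 and 2892 TPM at day 14 (log2 change 1.85 ± 0.25, limma adjusted p = 0.0115), and H2-D1 had 323, 359 and 453 TPM at day 9 and 760.4, 801 and 965 TPM at day 14 (log2 change 1.16 ± 0.16, limma adjusted p = 0.0123). All 3 were higher in every day 14 sample than in any day 9 sample. Class I genes are similar in sequence, so their division is uncertain. Outside the list, and looked up after the values were seen, H2-Q6 (log2 change 2.34 ± 0.40, limma adjusted p = 0.0167) and H2-Q7 (log2 change 2.22 ± 0.46, limma adjusted p = 0.027) rose, whereas H2-T23 (log2 change 0.87 ± 0.31, limma adjusted p = 0.102), H2-Q4 (log2 change 1.27 ± 0.37, limma adjusted p = 0.0613) and H2-T24 (log2 change 0.08 ± 0.35, limma adjusted p = 0.881) did not pass. H2-Eb1, a class II chain, rose too (log2 change 1.67 ± 0.44, limma adjusted p = 0.0488). Of the 13 antigen presentation genes tested, these 4 rose, 0 fell and 9 did not pass, beside 7.04% of all tested genes that rose. The list's median change was 1.29. Of 28 interferon response genes, 25 had positive changes and the median was 1.71, but 3 passed: Ido1, which degrades tryptophan, had 3.84, 13.5 and 13 TPM at day 9 and 83.1, 56.2 and 105 TPM at day 14 (log2 change 3.01 ± 0.47, limma adjusted p = 0.0142), and Ifit2 (log2 change 2.40 ± 0.61, limma adjusted p = 0.0438) and Oas1a (log2 change 2.08 ± 0.42, limma adjusted p = 0.0246) were the others. Isg15, a ubiquitin-like protein of this response, had 3.57, 68.5 and 102 TPM at day 9 and 61.7, 181 and 128 TPM at day 14 (log2 change 1.83 ± 1.17, limma adjusted p = 0.308). For this gene, mouse 11 was far below the other day 9 mice, and mouse 14 below the others of day 14. The 3 that passed stand beside 7.04% of all tested genes that rose. The 28 genes summed to 179, 1988 and 1504 TPM at day 9 and 1377, 4099 and 3413 TPM at day 14.

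The window before Oas1a, an enzyme that senses double-stranded RNA, is shown for its interferon-stimulated element. It lies at chr5:120907526-120907775 on the minus strand (RefSeq, GRCm38.p6), written 5′ to 3′ in the direction of the gene, with 2 overlapping matches in capitals, each GAAA, any pair of bases and GAAA.
Oas1a: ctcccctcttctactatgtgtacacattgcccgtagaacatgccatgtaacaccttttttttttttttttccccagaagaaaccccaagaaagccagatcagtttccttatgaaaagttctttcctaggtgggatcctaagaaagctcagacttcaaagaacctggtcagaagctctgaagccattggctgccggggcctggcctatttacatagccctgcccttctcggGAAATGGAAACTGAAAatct
The matches begin 20 and 14 bases before the RefSeq start. The bases just after that start were not found in a GENCODE transcript of the gene, so the distances depend on the annotation. Searched on both strands, this motif was in 12 of 21 windows (57.1%) of the 18 interferon genes matched, and in 2.98% of all windows. The 12 tested genes with it had a median change of 1.78 and 1 rose, and the 6 without it had a median of 1.47 and 1 rose. Oas1a had 5.58, 17.1 and 18.6 TPM at day 9 and 55.6, 60.5 and 50 TPM at day 14, and Oas1 genes are near copies.

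Several plasma cell genes rose from low levels. Of 11 tested B and plasma cell genes of 18, 7 rose, 0 fell and 4 did not pass, with a median of 1.58. Over all tested genes 7.04% rose. Igha, the constant region of IgA, had 11.6, 5.39 and 8.54 TPM at day 9 and 168, 64.4 and 208 TPM at day 14 (log2 change 3.85 ± 0.47, limma adjusted p = 0.0109). Jchain, which joins IgA units, had 2.66, 1.41 and 2.23 TPM at day 9 and 53.8, 22.2 and 61.2 TPM at day 14 (log2 change 3.81 ± 0.39, limma adjusted p = 0.0105), and Igkc, the kappa light chain, had 38.7, 17 and 33.5 TPM at day 9 and 555, 249 and 915 TPM at day 14 (log2 change 4.11 ± 0.52, limma adjusted p = 0.0112). Mouse 15 had the least of day 14 for all 3 genes and still lay above every day 9 sample. The 18 genes summed to 458 to 522 TPM at day 9 and 814 to 1774 TPM at day 14. The 7 under the filter included the B cell genes Ms4a1 and Pax5. Mzb1, a chaperone of plasma cells, had 0.347, 0.351 and 0.238 TPM at day 9 and 4.55, 2.13 and 10.7 TPM at day 14 (log2 change 2.17 ± 0.45, limma adjusted p = 0.0277). It thus entered the test through day 14 alone. A gene that was low on both days could not enter, so the count and median describe only the tested genes. Among 19 T and NK cell genes tested, 1 rose (Cd3g, log2 change 1.22 ± 0.27, limma adjusted p = 0.0331) and 0 fell, beside 7.04% and 9.77% of all tested genes. Of 8 mast cell and eosinophil genes tested, the mucosal mast cell proteases Mcpt1 (log2 change 2.28 ± 0.49, limma adjusted p = 0.029) and Mcpt2 (log2 change 1.87 ± 0.45, limma adjusted p = 0.0383) rose.

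Most tested goblet cell genes rose, several of them from near 0, so that they entered the test through day 14. Of 14 tested of 17 in the table, 10 rose, 0 fell and 4 did not pass, with a median of 4.89. Over all tested genes 7.04% rose. Zg16, a lectin of colonic mucus, had 36.2, 2.21 and 6.42 TPM at day 9 and 2912, 375 and 559.8 TPM at day 14 (log2 change 6.47 ± 1.09, limma adjusted p = 0.0167). Muc2, the gel-forming mucin, had 12.2, 0.154 and 2.84 TPM at day 9 and 461, 69.5 and 105 TPM at day 14 (log2 change 5.28 ± 1.03, limma adjusted p = 0.0235), and Fcgbp, which binds it, had 4.57, 0 and 0.83 TPM at day 9 and 229, 34.8 and 43.6 TPM at day 14 (log2 change 5.05 ± 0.89, limma adjusted p = 0.018). All day 14 samples were above all day 9 samples, mouse 14 was several times the other 2, and mouse 12 of day 9 was listed at or near 0. Tff3 (log2 change 6.42 ± 1.26, limma adjusted p = 0.0235), Spink4 (log2 change 6.00 ± 1.10, limma adjusted p = 0.02) and Clca1 (log2 change 5.20 ± 0.97, limma adjusted p = 0.021) followed. Sytl2, a granule-docking protein, was even among mice, with 1.59, 1.83 and 1.82 TPM at day 9 and 13, 11.3 and 14.7 TPM at day 14 (log2 change 2.34 ± 0.14, limma adjusted p = 0.00853). The transcription factor Spdef (log2 change 0.41 ± 0.44, limma adjusted p = 0.539) did not pass. The list summed to 202 to 483 TPM at day 9 and 1328 to 10834 TPM at day 14. The largest rise of all named genes was Spink1, a trypsin inhibitor, with 6.36, 0 and 1.16 TPM at day 9 and 707, 129 and 214 TPM at day 14 (log2 change 6.75 ± 0.88, limma adjusted p = 0.0113). Sval1 (log2 change 6.50 ± 0.79, limma adjusted p = 0.0109), the potassium pump chain Atp12a (log2 change 5.02 ± 0.68, limma adjusted p = 0.0118), Sectm1b (log2 change 4.93 ± 0.61, limma adjusted p = 0.0109) and the protease Prss30 (log2 change 4.87 ± 0.65, limma adjusted p = 0.0114) were also among the 12 largest rises of the named genes.

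Colonocyte genes mostly had positive changes, and fewer of them passed. Of 25 tested of 29, 7 rose, 1 fell and 17 did not pass, with a median of 3.06. Over all tested genes, 7.04% rose and 9.77% fell. Car1, a carbonic anhydrase of surface colonocytes and a defining marker, had 89.4, 0.242 and 4.91 TPM at day 9 and 1231, 78.2 and 112 TPM at day 14 (log2 change 4.67 ± 1.73, limma adjusted p = 0.11), and mouse 11 of day 9 was above mouse 15 of day 14. Lypd8, which keeps bacteria from the surface, had 890.4, 8.68 and 141 TPM at day 9 and 22314, 2204 and 5376 TPM at day 14 (log2 change 5.91 ± 1.68, limma adjusted p = 0.0582), with no overlap. Car4 (log2 change 3.28 ± 0.55, limma adjusted p = 0.0167), the water channels Aqp8 (log2 change 3.89 ± 0.70, limma adjusted p = 0.0194) and Aqp4 (log2 change 3.06 ± 0.25, limma adjusted p = 0.00853), and the chloride exchanger Slc26a3 (log2 change 4.13 ± 0.98, limma adjusted p = 0.0375) rose. Aqp4 was even among the day 14 mice, at 23.6, 16.9 and 22.6 TPM against 1.59, 0.968 and 2.49 TPM at day 9. Dpep1, a dipeptidase, fell (log2 change -1.20 ± 0.26, limma adjusted p = 0.0289). Of the colonocyte genes, 1 to 7 were at 0 in a day 9 sample and 0 to 1 in a day 14 sample. Without mouse 14, 8 goblet cell genes rose and 2 fell (Ccl6 and Bcas1), beside 1565 and 1273 of all 12869 genes tested. Without that mouse, the sum of colonocyte markers at day 14 still lay above all day 9 samples, at 3050 and 7063 TPM. What part of these rises came with colonic tissue in the sections was not tested.

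Markers of other cell types that a section may hold were read beside the 16.8% of all tested genes that passed. None of 10 smooth muscle genes tested passed with limma, and the 11 genes summed to 283 to 433 TPM at day 9 and 273 to 351 TPM at day 14. Of 13 endothelial genes tested, Emcn (log2 change -0.73 ± 0.14, limma adjusted p = 0.0235) and Eng (log2 change -0.63 ± 0.16, limma adjusted p = 0.045) fell. Skeletal muscle genes summed to 11.4 to 14.9 TPM at day 9 and 10.1 to 13.4 TPM at day 14, and of 4 tested, Myl1 rose at a low level (log2 change 0.77 ± 0.19, limma adjusted p = 0.0413). Of 3 tested genes of enteric neurons and glia, Tubb3, a tubulin of neurons, fell, with 37.5, 27 and 27.2 TPM at day 9 and 6.84, 1.9 and 2.51 TPM at day 14 (log2 change -2.86 ± 0.38, limma adjusted p = 0.0115). The neuronal marker Elavl4 had 0, 0 and 0 TPM at day 9 and 0.159, 0 and 0.261 TPM at day 14, at or near 0 in every sample.

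At day 20 the levels of some genes overlapped those of day 14 and those of others did not, and no test was made. Cdk1 had 48.9, 49.4 and 39.4 TPM and Mmp13 9.41, 7.34 and 12 TPM, each overlapping its day 14 range. Col3a1 had 212, 117 and 293 TPM, so mice 17 and 18 were below every day 14 sample, and mouse 19 was within the day 14 range. Sprr3 had 189.6, 16.3 and 106 TPM, Flg 34.9, 0.348 and 9.92 TPM and Krt1 30.5, 0.299 and 11.7 TPM, so mice 17 and 19 held more than any day 14 sample and mouse 18 did not. S100a8 had 195, 1791 and 327 TPM, with mouse 18 highest, and that mouse also had the most H2-K1, at 578, 1274 and 634 TPM. Igha had 1081, 952 and 284 TPM, above every day 14 sample. Duox2 had 21.4, 25.7 and 22 TPM, and Zg16 had 2439, 1875 and 3779.5 TPM.

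Whether the change differed from that in the rectum of the same mice was tested gene by gene as an interaction of section and day. Of 14105 genes tested, 35 passed with limma (0.248%), with 19 changes higher (0.135%) and 16 lower (0.113%) in the neo-epithelium, and 1764 had an unadjusted p under 0.05. Over all tested genes the median difference was 0.20, and with trimmed mean scaling it was -0.03 and the split was 14 higher and 22 lower. Duox2 rose in the neo-epithelium, while the rectum had 86.7, 97.2 and 146 TPM at day 9 and 35.2, 143 and 67.6 TPM at day 14 (difference 3.62 ± 0.58, limma adjusted p = 0.0466). At day 14 the neo-epithelium was below the rectum in mice 15 and 16 and above it in mouse 14. Tnfrsf11b, a decoy receptor for the cytokine RANKL, had 10.3, 17 and 21.6 TPM at day 9 and 73.7, 215 and 188 TPM at day 14 in the neo-epithelium and 14.3, 39.8 and 31.5 TPM and then 4.37, 13.2 and 15 TPM in the rectum (difference 4.48 ± 0.76, limma adjusted p = 0.0466). Cldn4, which was singled out after its values were seen, had 94.1, 135 and 133 TPM and then 50.4, 50.8 and 38.5 TPM in the rectum, below the day 14 neo-epithelium in every mouse (difference 2.46 ± 0.28, limma adjusted p = 0.0127). Aldh3b2, a lipid aldehyde dehydrogenase, did not pass in the neo-epithelium, at 53, 51.4 and 44.9 TPM at day 9 and 20.4, 44 and 23.9 TPM at day 14 (log2 change -0.81 ± 0.28, limma adjusted p = 0.0939), and had 1.98, 1.14 and 1.58 TPM and then 14.3, 10.7 and 12.8 TPM in the rectum (difference -3.22 ± 0.36, limma adjusted p = 0.0127). Calm4, a calmodulin-like gene of skin (-3.10 ± 0.53, limma adjusted p = 0.0466), and Klk13 (-4.60 ± 0.71, limma adjusted p = 0.0428) had lower changes in the neo-epithelium.

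Lce3e and Lce3f were listed at 0 in all 6 rectal samples, so their differences equal the neo-epithelial change (Lce3f -5.04 ± 0.85, limma adjusted p = 0.0466). Of 14 cornification genes tested, 3 had a lower change in the neo-epithelium (Lce3e, Lce3f and Cst6). With mouse as a block Cst6 no longer passed (limma adjusted p = 0.0743), and with trimmed mean scaling Lce3e and Lce3f did not (0.0535 and 0.0502). None of 32 cell cycle genes and none of 24 matrix genes passed against the rectum with limma, where 2 and 1 had an unadjusted p under 0.05. The rectum fitted alone had 435 genes that rose and 619 that fell of 13115, and its own median change was -0.16. With mouse as a block 95 genes passed, 67 higher and 28 lower. Without mouse 12, 13 or 16 the count was 0.

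**Figure D4:**
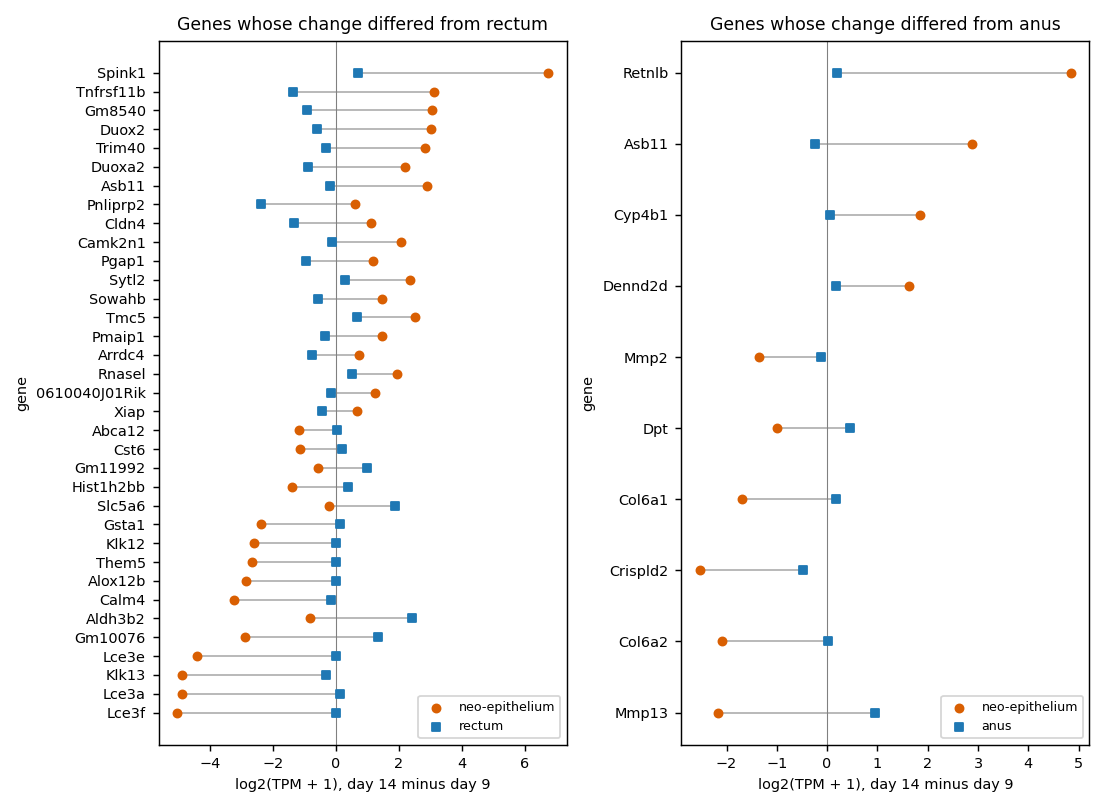
Change from day 9 to day 14 on the log2(TPM + 1) scale (horizontal axis) in the neo-epithelium (circles) and in the rectum (squares, left panel, 35 genes) or the anus (squares, right panel, 10 genes) of the same 6 mice, 1 gene per row, for the genes whose change differed between the sections. A line joins the changes of a gene: Cldn4 has 1.12 in the neo-epithelium and -1.34 in the rectum, and Mmp13 has -2.17 in the neo-epithelium and 0.95 in the anus.

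Against the anus, squamous tissue outside the colon, 10 of 14345 genes passed with limma (0.0697%), 4 with a higher change in the neo-epithelium (0.0279%) and 6 with a lower change (0.0418%), and 1968 had an unadjusted p under 0.05. This test and that against the rectum share the 6 neo-epithelial samples. Matrix genes stood among the lower changes. Col6a1 had 29.9, 27.8 and 36.9 TPM and then 36.8, 34.7 and 35.1 TPM in the anus, with little movement (difference -1.87 ± 0.24, limma adjusted p = 0.0333), and Col6a2 had 18.6, 21.7 and 29.3 TPM and then 24.2, 21.8 and 23.7 TPM (difference -2.11 ± 0.31, limma adjusted p = 0.0401). Mmp13 was near 0 in the anus, at 0.0175, 0.35 and 0.481 TPM and then 1.36, 1.52 and 1.45 TPM (difference -3.11 ± 0.38, limma adjusted p = 0.0333). Mmp2 (-1.23 ± 0.17, limma adjusted p = 0.0333), the matrix protein Dpt (-1.46 ± 0.20, limma adjusted p = 0.0333) and the secreted Crispld2 (-2.06 ± 0.29, limma adjusted p = 0.0333) were the other 3. Retnlb (4.65 ± 0.68, limma adjusted p = 0.0401), Asb11 (3.13 ± 0.43, limma adjusted p = 0.0333), the cytochrome Cyp4b1 (1.79 ± 0.24, limma adjusted p = 0.0333) and Dennd2d (1.44 ± 0.20, limma adjusted p = 0.0333) had higher changes. Retnlb was near 0 in the anus, at 0, 0.0912 and 0.111 TPM and then 0, 0.5 and 0.22 TPM. Its difference is therefore close to its neo-epithelial change of 4.85. Cyp4b1 went from 1.55, 1.6 and 1.33 TPM to 6.6, 9.7 and 7.94 TPM in the neo-epithelium, toward the anal 14.3, 12 and 11.7 TPM.

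Of the lists, 2 of 24 matrix genes passed against the anus, and none of 24 cornification genes and none of 32 cell cycle genes did with limma, where 11 and 1 had an unadjusted p under 0.05. Of the 24 matrix genes, 23 had an unadjusted limma p under 0.05. All 24 differences were negative, with a median of -1.39. The anus fitted alone had 26 genes that rose and 1 that fell of 13373. With mouse as a block, 2 of the 14345 genes passed; Mmp13 had an adjusted p of 0.0368 and the other 9 named genes 0.0728. With trimmed mean scaling 71 genes passed, 14 higher and 57 lower. Without mouse 12, 13 or 16 the count was 0, and without any 1 of the others it was 1 or 2.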

How the data were processed

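The deposited signal was TPM per Ensembl transcript in one table for the 66 samples; per the submitters' processing notes kallisto, CASAVA and mm10 were used, with no versions given, and per the labels' protocols libraries were stranded mRNA, single-end 75 bp. Of 126860 rows, 37344 had no values and 1318 repeated a transcript; these were left out, and TPM of the other 88198 transcripts was summed per gene (30452 genes). A further 1284 of these transcripts named no gene (0.72% to 1.21% of TPM in the neo-epithelium) and entered no test. The unit is called a signal here because, with the repeated rows, the deposited columns sum to more than 1000000 TPM; after the repeats were dropped each sums to 1000000 TPM. Symbols came from the table.

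The test was limma 3.58.1 (R 4.3.3) on log2(TPM + 1), for genes with at least 1 TPM in 3 or more samples of a comparison (empirical Bayes with a mean-expression trend, two-sided, Benjamini-Hochberg adjustment over all genes tested). The day comparison used the 6 neo-epithelium samples; the section tests were interactions over 12 samples. The code was tested on simulated data. Mice differ between days, so day 9 and day 14 are not paired. Sections of one mouse are paired by animal: correlations of deviations averaged 0.204 with the rectum (0.0408 to 0.365) and 0.069 with the anus (-0.035 to 0.22).

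Named genes were those of the 35 lists, the called genes ranked 1 to 12 by size of change, for rises and for falls separately (mean of at least 8 TPM in the higher group, no overlap, no predicted model), and 6 per direction in each section test. Members and lists were chosen with earlier results of these data known. Gene intervals are from GENCODE vM21 and upstream windows from RefSeq GRCm38.p6. Alternatives changed the pseudocount (0.1 and 5 TPM), the filter, the scaling (trimmed mean of M-values factors computed on TPM), the mitochondrial genes, the samples and the weights. Neither batch nor date is stated in the labels used. Single results for some listed genes are not reported here.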

Additional observations from a re-analysis of the deposited data

Results flagged for a closer look

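The change from day 9 to day 14 differed between the neo-epithelium and the rectum of the same mice in 35 of 14105 genes by limma's interaction test. On the log2(TPM + 1) scale, the change in the neo-epithelium exceeded that in the rectum by 6.04 for Spink1, 4.48 for Tnfrsf11b, 3.62 for Duox2, 3.14 for Trim40, 3.06 for Duoxa2 and 3.06 for Asb11. Spink1 was already at 1472, 1246 and 1347 TPM in the rectum at day 9, and Trim40, a ubiquitin ligase of the gut, at 103, 192 and 134 TPM. The differences were -3.10 for Calm4, -3.22 for Aldh3b2, -4.40 for Lce3e, -4.60 for Klk13, -5.01 for Lce3a and -5.04 for Lce3f. In the rectum Calm4 had 0.635, 1.25 and 0 TPM and then 0.06, 0.983 and 0.295 TPM, and Klk13 was under 1 TPM in every sample. With mouse as a block, adjusted p was 0.0524 for Duox2 and 0.058 for Trim40, above the threshold, and between 0.00647 and 0.0495 for the other 10. With trimmed mean scaling it was 0.0559 for Spink1, 0.0546 for Tnfrsf11b, 0.0535 for Lce3e and 0.0502 for Lce3f, which no longer passed.

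Against the anus, 10 of 14345 genes differed by the same test, which did not use the pairing of sections by mouse. With mouse as a block, the limma adjusted p was 0.0368 for Mmp13 and 0.0728 for the others, which no longer passed. The differences were 4.65 for Retnlb, 3.13 for Asb11, 1.79 for Cyp4b1, 1.44 for Dennd2d, -1.23 for Mmp2, -1.46 for Dpt, -1.87 for Col6a1, -2.06 for Crispld2, -2.11 for Col6a2 and -3.11 for Mmp13. Asb11 was at 0.627, 0.65 and 0.494 TPM in the day 9 neo-epithelium and 16.3, 11.8 and 11.5 TPM in the anus, and the day 14 neo-epithelium had 7.03, 13.1 and 13.2 TPM. Groups of 3 samples are too small for the check for outlying samples.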

How the results depend on the processing

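The 2207 called genes became 2220 with a pseudocount of 0.1 TPM, 2037 with 5 TPM, 2036 with a filter of 5 TPM, 2464 with trimmed mean factors (939 higher, 1525 lower) and 2244 without mitochondrial genes (1070 higher, 1174 lower). Without a filter the count was 1379 (514 higher, 865 lower), with a 2-fold minimum 872 (450 higher, 422 lower), and with array quality weights 4670 (2529 higher, 2141 lower); the cause was not tested. Leaving out 1 mouse gave 0 to 2838 genes, 0 to 1565 higher and 0 to 1273 lower. The value of 0 came without mouse 13; the counts were 1002, 540, 2838, 873 and 671 without mouse 11, 12, 14, 15 and 16. In the lists and largest changes, 199 of 576 genes were called, and trimmed mean factors kept 192, lost 7 and gained 10. No gene called in the main fit or in an alternative had opposite directions in the 2 fits, where both tested it. Changes of direction in genes called in neither fit were not counted. Without mouse 14, chosen after seeing the data, 203 listed genes were called against 187.

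Against the rectum, 35 genes became 11 with a pseudocount of 0.1 TPM, 19 with a filter of 5 TPM, 95 with mouse as a replicate block, and 0 to 52 when 1 mouse was left out. Against the anus, 10 became 6 with a pseudocount of 5 TPM, 29 without a filter, 21 with a filter of 5 TPM, 71 with trimmed mean factors, 2 with the replicate block and 0 to 2 when 1 mouse was left out. No paired analysis was possible for day 14 against day 9 because the days hold different mice. Unknown depth leaves the counting error of low genes unmeasured.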

Other observations

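Of 25 lipid and cholesterol genes tested, 4 fell and 1 rose, beside 9.77% and 7.04% of all tested genes. Alox12b, a lipoxygenase of the skin's lipid barrier, had 11.1, 10.6 and 11.3 TPM at day 9 and 0.106, 2.45 and 0.231 TPM at day 14 (log2 change -2.84 ± 0.43, limma adjusted p = 0.0134), and the barrier genes Cers3 (log2 change -0.94 ± 0.25, limma adjusted p = 0.0474) and Elovl4 (log2 change -1.32 ± 0.30, limma adjusted p = 0.0348) fell too, with Fdps of cholesterol synthesis (log2 change -0.56 ± 0.11, limma adjusted p = 0.026), while Sc5d of the same pathway rose (log2 change 0.55 ± 0.13, limma adjusted p = 0.0398). No day 14 sample of the 3 barrier genes reached a day 9 sample. Of 19 detoxification and retinoid genes, Aldh3a1, an aldehyde dehydrogenase of squamous and corneal cells, fell, with 66.6, 35.9 and 48.8 TPM at day 9 and 5.31, 11.6 and 8.42 TPM at day 14 (log2 change -2.46 ± 0.32, limma adjusted p = 0.0113), and Crabp2, which binds retinoic acid, fell as well (log2 change -0.93 ± 0.19, limma adjusted p = 0.0277).

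The counts that follow stand beside 7.04% of all tested genes that rose and 9.77% that fell. Of 18 hypoxia and glycolysis genes, Egln3, an oxygen-sensing hydroxylase, rose (log2 change 1.72 ± 0.45, limma adjusted p = 0.048), and with trimmed mean factors its adjusted p was 0.0525. Of 20 genes of the respiratory chain and citric acid cycle, 2 fell. They were Uqcrc1 of the chain (log2 change -0.50 ± 0.11, limma adjusted p = 0.0318) and Idh3a of the cycle (log2 change -0.47 ± 0.11, limma adjusted p = 0.0338). Asns, asparagine synthetase, was the 1 of 16 unfolded protein response genes that fell, with 77.8, 61 and 70.9 TPM at day 9 and 36.8, 28.2 and 37.5 TPM at day 14 (log2 change -1.02 ± 0.16, limma adjusted p = 0.0143). Of 13 colonic crypt, tuft and enteroendocrine genes tested, Tac1 (log2 change 2.86 ± 0.54, limma adjusted p = 0.0219), Chgb (log2 change 2.03 ± 0.52, limma adjusted p = 0.0448) and Smoc2 (log2 change 0.85 ± 0.22, limma adjusted p = 0.0452) rose and the tuft cell kinase Dclk1 fell (log2 change -0.86 ± 0.17, limma adjusted p = 0.0246); without mouse 14 none of the list rose with limma.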
